A study of Mus musculus with 4 samples.

Results

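Megalin and cubilin are the receptors that take filtered protein back out of the urine in the kidney, and their 8 genes and partners (Lrp2, Cubn, Amn, Dab2, Clcn5, Lrpap1, Ctsb and Lamp1) are described here in mouse kidney after ischemia and reperfusion. Every non-control probe whose gene name in the scanner files is one of these symbols was taken, which gave 16 probes for 8 genes, of 41142 probes and 21082 genes in all. Total RNA of 8-week-old C57BL/6 mice was read on 4 one-colour Agilent arrays, 1 per group: wild type sham, NLRC5-/- sham, wild type injured and NLRC5-/- injured. Injury was a bilateral ischemia lasting 30 min with reperfusion after it, for 48 h by some label fields and 24 h by others. NLRC5-/- mice lack Nlrc5, which controls genes of MHC class I antigen presentation. Which exons are deleted, and whether RNA of several animals was pooled, is not stated in the labels, and the genotypes are named as labelled.

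In the first segment of the proximal tubule, megalin (Lrp2) and cubilin (Cubn) on the brush border bind albumin, vitamin-binding proteins and hormones from the filtrate. Amnionless (Amn) anchors cubilin in the membrane, the chaperone RAP (Lrpap1) keeps megalin from binding ligand too early, and the adaptor Dab2 links the receptors to clathrin. The chloride-proton exchanger ClC-5 (Clcn5) supports acidification of the endosomes, and cargo ends in lysosomes, where cathepsin B (Ctsb) degrades protein and Lamp1 lines the membrane.

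Values are log2 of the processed spot intensity minus the 75th percentile of the array, so 0 is the level of that percentile and a difference of 1 is 2-fold. All 16 probes were well above background on every array. Because each group has a single array, a difference between 2 arrays has no replicate check and no test. Over 245 probes spotted repeatedly, the log2 difference between any pair of arrays had an SD of 0.09 to 0.16 (the spot noise), a technical error that does not cover differences between animals. Both wild type arrays lay on one slide and both NLRC5-/- arrays on another, each with its own scan, so genotype and slide cannot be told apart, whereas each injured array shared its slide with its sham array. The NLRC5-/- sham array also stood apart in sex-chromosome genes. Xist, a marker of female cells, read 5.20 there and was at background on the other 3, while the Y-linked genes Ddx3y, Eif2s3y, Kdm5d and Uty were at background on that array alone. Sex therefore differs along with the group wherever NLRC5-/- sham is compared.

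Probes that cross an exon junction in the coding sequence read spliced message, and 5 of the 16 do so by the coordinates in the files. They are shown because they cover Lrp2, Amn and Lrpap1, which were lower in the wild type injured kidney. Each is 60 bases, written 5′ to 3′ as deposited. In the Amn probe the capitals mark bases 2 to 19, which encode an FXNPXF signal, the endocytic motif through which adaptors such as Dab2 bind receptors.
Lrp2 A_51_P174921: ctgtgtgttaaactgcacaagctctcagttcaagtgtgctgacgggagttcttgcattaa
Lrp2 A_52_P460882: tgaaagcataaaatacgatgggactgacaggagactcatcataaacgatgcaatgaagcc
Amn A_51_P343350: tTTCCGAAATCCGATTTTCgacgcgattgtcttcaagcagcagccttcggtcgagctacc
Dab2 A_52_P17534: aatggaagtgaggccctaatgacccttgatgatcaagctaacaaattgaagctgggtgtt
Lrpap1 A_52_P583973: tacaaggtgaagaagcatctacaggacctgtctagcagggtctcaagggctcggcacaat

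The receptors and the proteins that fold and hold them were lower in the wild type injured kidney than in the wild type sham kidney and, at 2-fold, in no NLRC5-/- comparison of injured with sham. By the probe with the highest mean log2 value, which stands for each gene, Lrp2, Cubn, Amn and Lrpap1 were at least 2-fold lower after injury in wild type, 4 of 8 genes, and none was 2-fold higher. Over all genes well above background on either array, 27.0% differed by 2-fold, with 12.7% of all genes lower and 14.3% higher. In NLRC5-/- kidneys 0 of 8 differed by 2-fold between injured and sham, where 7.64% of all genes did, 4.46% higher and 3.18% lower. Dab2, Clcn5, Ctsb and Lamp1 were within 2-fold in every comparison between 2 arrays by that probe.

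**Figure D1:**
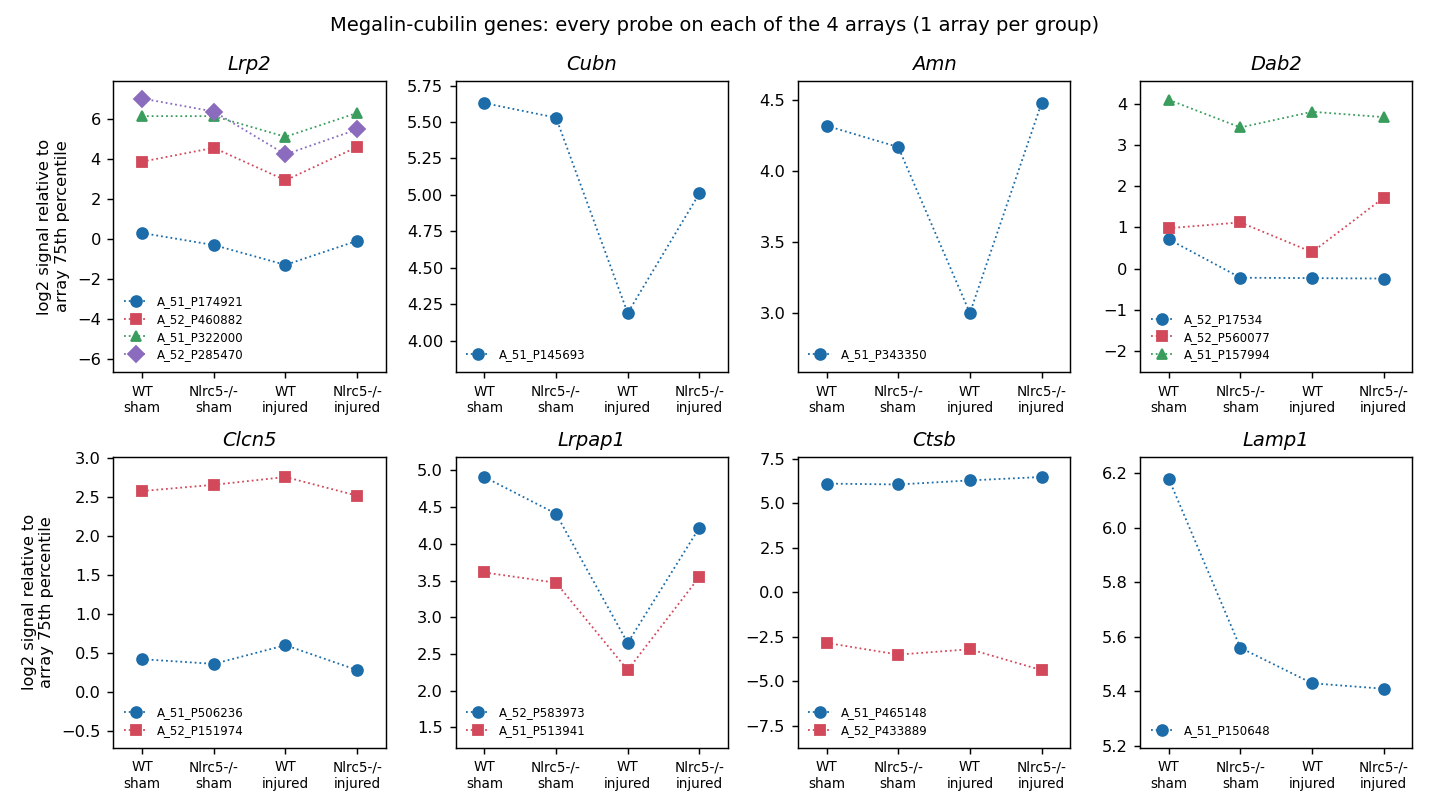
Each panel shows one gene, each line one probe, with log2 signal relative to the array's 75th percentile on a vertical axis that differs between panels, and the 4 arrays along the horizontal axis. Lrp2, Cubn, Amn and Lrpap1 have their lowest point on the wild type injured array, whereas both Clcn5 probes have their highest there.

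Megalin is read by 4 probes, all on chromosome 2 (mm9, minus strand). The probe that stands for the gene, A_51_P322000 (69263648 to 69263707), read 6.13 in wild type sham, 6.13 in NLRC5-/- sham, 5.10 in wild type injured and 6.29 in NLRC5-/- injured. The wild type injured array was low and the other 3 lay close together, so that the injured kidney was lower by 2.03-fold in wild type (log2 difference -1.02) and differed by 0.16 in NLRC5-/-. A_51_P174921 (69345884 to 69346029) read 0.30, -0.30, -1.29 and -0.09 in the same order. A_52_P460882 (69274792 to 69275529) read 3.86, 4.55, 2.93 and 4.59. For these probes, too, the wild type injured array was the lowest.

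The Lrp2 probe nearest the 3′ end, A_52_P285470 (69262566 to 69262625), behaved differently in NLRC5-/- kidneys. It read 7.01, 6.36, 4.22 and 5.47, a difference of -2.79 with injury in wild type and of -0.88 in NLRC5-/-. It starts at base 15233 of the transcript, 1082 bases beyond A_51_P322000, and is the probe that would stand for Lrp2 if chosen by linear signal, an alternative added after seeing the data. The probes thus disagree on whether Lrp2 was lower in the NLRC5-/- injured kidney (-0.88, 0.04, 0.16 and 0.21). All 4 were higher in NLRC5-/- injured than in wild type injured kidney, by 1.19 to 1.65. They also disagree in sham kidneys, where the NLRC5-/- array differed from wild type by -0.65, -0.60, 0.01 and 0.69.

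**Figure D2:**
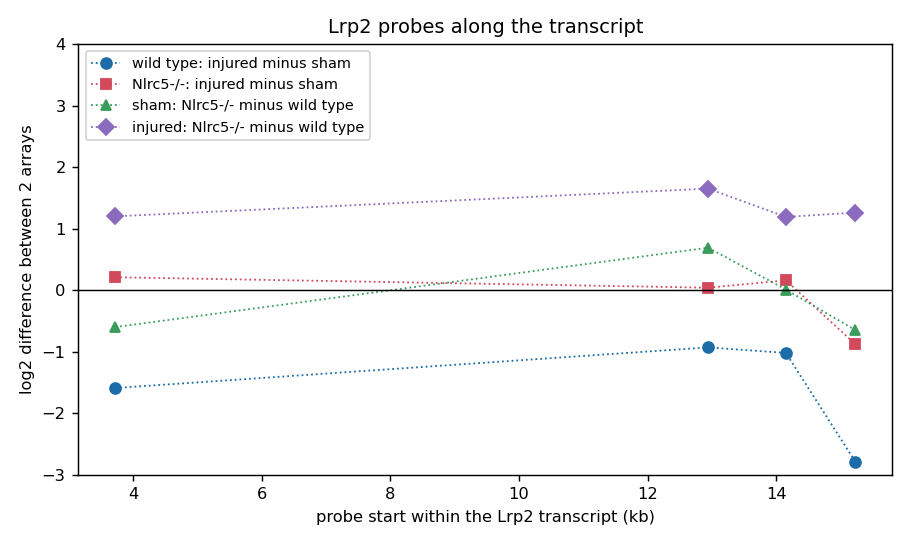
The log2 difference between 2 arrays is plotted for each of the 4 Lrp2 probes against the probe's start in the transcript in kb, with one line per comparison. The differences between injured kidneys lie between 1.19 and 1.65 at all 4 positions, whereas the injury difference in NLRC5-/- is -0.88 at the last position and between 0.04 and 0.21 at the others.

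Cubilin has 1 probe, A_51_P145693 (chromosome 2, 13197988 to 13198047, minus strand, mm9). It read 5.63 in wild type sham, 5.53 in NLRC5-/- sham, 4.19 in wild type injured and 5.01 in NLRC5-/- injured. Both injured arrays were below both sham arrays. The difference with injury was -1.44 in wild type (2.72-fold lower) and -0.52 in NLRC5-/-, the lowest NLRC5-/- value of the 8 genes. Of all genes above background, 6.64% were as low or lower in the wild type comparison and 13.7% in the NLRC5-/- comparison.

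Amnionless, the membrane anchor of cubilin, is read by A_51_P343350 (chromosome 12, 112514095 to 112514243, plus strand, mm9), the probe that holds the FXNPXF codons shown above. It read 4.32, 4.17, 3.0 and 4.48 in wild type sham, NLRC5-/- sham, wild type injured and NLRC5-/- injured. The wild type injured array was low and the NLRC5-/- injured array the highest of the 4. The injury differences were -1.32 in wild type (2.49-fold lower) and 0.31 in NLRC5-/-, and the injured kidneys differed by 1.48, higher in NLRC5-/-. Cubilin and its anchor thus had like differences in wild type and differences of opposite sign in NLRC5-/-, a contrast between single arrays that was not tested.

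RAP had the largest injury difference of the 8 genes in wild type by the probes that stand for them. Its junction probe A_52_P583973 (chromosome 5, 35435982 to 35437504, minus strand, mm9) read 4.91, 4.41, 2.65 and 4.22, so the wild type injured array was 4.79-fold below its sham array (log2 difference -2.26) and the NLRC5-/- pair differed by -0.19. Of all genes above background, 2.33% were as low or lower in wild type. The second Lrpap1 probe, A_51_P513941, read 3.61, 3.47, 2.28 and 3.55. Its differences were -1.33 in wild type and 0.07 in NLRC5-/-, so both probes place the wild type injured array lowest.

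Dab2, the adaptor, did not follow the receptors by the probe that stands for it, and its probes disagree. Its probe A_51_P157994 (chromosome 15, 6389424 to 6389483, plus strand, mm9) read 4.09, 3.42, 3.80 and 3.67, with wild type sham the highest and NLRC5-/- sham the lowest. The injury differences were -0.29 in wild type and 0.25 in NLRC5-/-. The junction probe A_52_P17534 read 0.71, -0.22, -0.23 and -0.24, high in wild type sham alone. A_52_P560077, which the files assign to another transcript, read 0.98, 1.12, 0.40 and 1.72, high in NLRC5-/- injured and low in wild type injured. The 3 Dab2 probes therefore place the 4 arrays in different orders, and between the injured kidneys they differed by -0.13, -0.01 and 1.33. With the mean over probes, Dab2 differed by -0.6 with injury in wild type and by 0.28 in NLRC5-/-. By that mean the injured kidneys differed by 0.4 and the injury responses by 0.88, higher in NLRC5-/-.

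Clcn5 varied little. A_52_P151974 (chromosome X, 6730950 to 6731009, minus strand, mm9) read 2.58, 2.66, 2.76 and 2.52, and A_51_P506236 read 0.42, 0.36, 0.60 and 0.28. Both probes were highest in wild type injured and lowest in NLRC5-/- injured, with an injury difference of 0.17 in wild type by either probe, close to the spot noise.

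The lysosomal members went different ways. Ctsb probe A_51_P465148 (chromosome 14, 63761906 to 63761965, plus strand, mm9) read 6.10, 6.05, 6.28 and 6.47, with both injured arrays above both sham arrays by 0.18 in wild type and 0.41 in NLRC5-/-. A dim second Ctsb probe, A_52_P433889, lies 2225 bases further 3′ and read -2.84, -3.50, -3.20 and -4.37, lower after injury in both genotypes by 0.36 and 0.87. The Ctsb probes thus disagree in sign. Lamp1 probe A_51_P150648 (chromosome 8, 13175136 to 13175195, plus strand, mm9) read 6.18 in wild type sham and 5.56, 5.43 and 5.41 in NLRC5-/- sham, wild type injured and NLRC5-/- injured, so wild type sham was high and the other 3 lay within the spot noise of their neighbours.

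**Figure D3:**
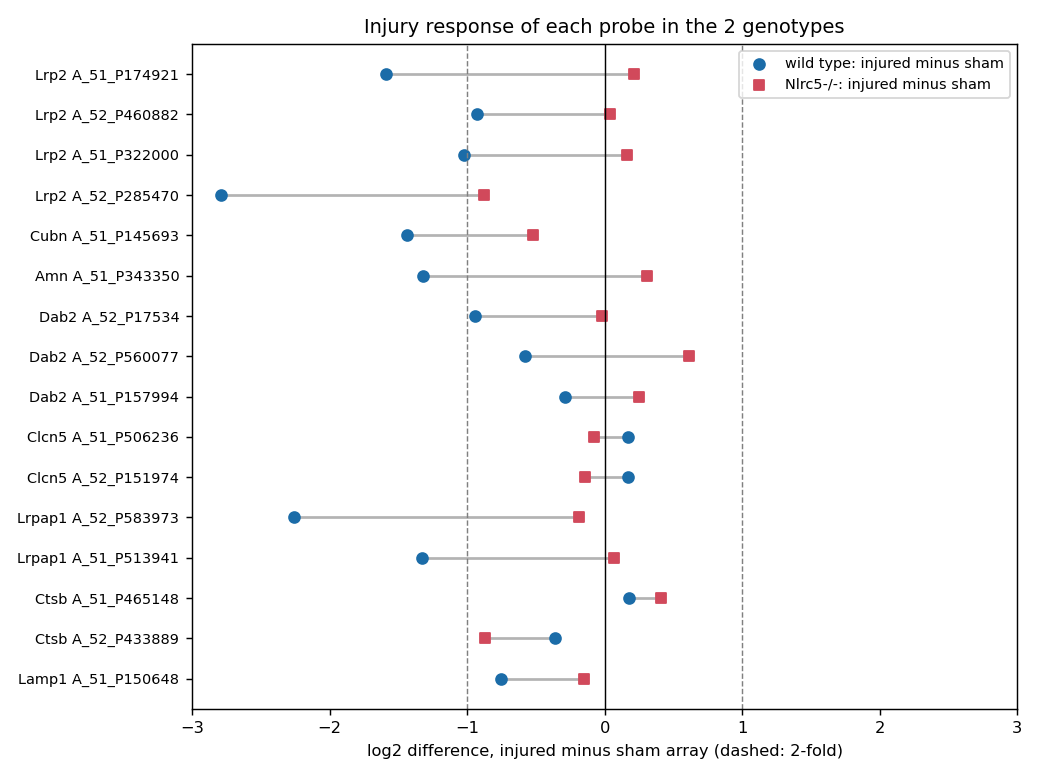
The horizontal axis is the log2 difference between the injured and the sham array, with circles for wild type and squares for NLRC5-/- joined by a line for each of the 16 probes, and dashed lines at 2-fold. In wild type 7 probes lie beyond the lower dashed line and 13 are below 0, whereas in NLRC5-/- no probe lies beyond either dashed line and 8 are below 0. Genes with several probes count more than once, and the share over all probes was not counted.

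Between the injured kidneys, Lrpap1, Amn and Lrp2 were higher in NLRC5-/- by 1.57, 1.48 and 1.19 (2.98-fold, 2.78-fold and 2.28-fold), and Cubn by 0.83. That is 3 of 8 genes 2-fold higher and 0 lower, where 16.5% of all genes differed by 2-fold, 8.74% higher and 7.72% lower. Dab2, Clcn5, Ctsb and Lamp1 differed by -0.13, -0.24, 0.19 and -0.03. By probe, 8 of 16 were 2-fold higher and the dim Ctsb probe was 2-fold lower. Genes with several probes count more than once there, and the share over all probes was not counted. The median over the 8 genes was 0.51, against 0.02 over all genes, and lay between 0.44 and 0.56 under the other scalings of the arrays. The background correction moved it further. Under the planned normexp form it was 0.14, below the 0.23 of all genes, and Lrp2 differed by 0.77 and was no longer 2-fold higher. With flagged backgrounds left out of the fit alone, a form added later, it was 0.67, against -0.19 over all genes. The other added form lost Cubn, and over the 7 genes left the median was 0.02 against -0.20. The Ctsb value moved as well, from 0.47 in the first of these forms to -0.89 in the second. Both forms were fitted on the same spots and differ in the spots kept, so another probe may stand for Ctsb in the second. Which probe did so was not recorded. The 2 medians therefore differ by more than the loss of Cubn.

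Between the sham kidneys 0 of 8 genes differed by 2-fold, where 7.15% of all genes did, 3.9% higher and 3.25% lower. The receptor genes were close, with differences of 0.01 for Lrp2, -0.10 for Cubn and -0.15 for Amn. The largest differences were -0.66 for Dab2, -0.62 for Lamp1 and -0.50 for Lrpap1, all lower on the NLRC5-/- array of female pattern. Scaling moved this comparison. The median of all genes was 0.04 here and -0.11 with arrays scaled to their medians, and the 2-fold split of 661 genes higher and 552 lower became 439 and 836. The median of the 8 genes went from -0.13 to -0.28 with median scaling and to 0.04 with quantile normalization, so no direction is given for the group.

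The injury response of NLRC5-/- minus that of wild type was 2.07 for Lrpap1, 1.63 for Amn, 1.18 for Lrp2, 0.93 for Cubn, 0.60 for Lamp1, 0.53 for Dab2, 0.24 for Ctsb and -0.31 for Clcn5. This is 3 of 8 genes beyond 2-fold, all higher, against 19.1% of all genes, 9.82% higher and 9.29% lower. Under the planned normexp form Lrp2 went to 0.94, which left 2 of 8, and the median of the 8 genes went from 0.76 to 0.33. With median scaling 4 of 8 were beyond 2-fold. The value rests on all 4 arrays, the NLRC5-/- sham array included. Wild type sham was put in its place, a choice made after seeing the data, so that genotype and slide also differ between the 2 arrays. The NLRC5-/- injured kidney then differed from sham by 0.17 for Lrp2, -0.62 for Cubn, 0.16 for Amn and -0.69 for Lrpap1. Of the 8 genes 0 differed by 2-fold, where 17.4% of all genes did. Dab2 changed sign, from 0.25 to -0.42, and Lamp1 went from -0.15 to -0.77.

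All 4 arrays were fitted by an additive limma model of genotype and treatment with 1 residual degree of freedom, in which a true difference in response between genotypes counts as error. For injury over both genotypes Cubn differed by -0.98 ± 0.36 (SE) with a Benjamini-Hochberg adjusted p of 0.432, Lrpap1 by -1.22 ± 0.61 (0.449), Amn by -0.50 ± 0.51 (0.638) and Lrp2 by -0.43 ± 0.41 (0.621). For genotype over both treatments the 8 genes had limma adjusted p-values of 0.772 to 0.947. No gene of 16537 passed at 0.05 in either comparison. Before adjustment, 849 genes higher and 1001 lower with injury had a p under 0.05, as did 558 higher and 345 lower with genotype, none of them among the 8. A limma fit of 1 factor on the 3 arrays other than NLRC5-/- sham, added after seeing the data, also called no gene. Its smallest adjusted p was 0.615 for injury and 1 for genotype, with Cubn at -1.03 and Lrpap1 at -1.47 for injury (limma adjusted p of 0.644 and 0.647). The calls depend on the background correction: with normexp in 3 forms, Lrpap1 passed for injury with limma adjusted p-values of 0.00264, 0.00399 and 0.0201, and Cubn with 0.0076 and 0.0401 in the 2 forms that kept its probe. The same forms called 1060 to 4292 of all genes.

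Around the receptors, genes for the ligands and for vitamin handling were lower in wild type injured kidney in 8 of 15 cases at 2-fold. With 0 higher, their median was -1.51, where 12.7% of all genes were lower and 14.3% higher. Tcn2, which carries vitamin B12 and is taken up by megalin, read 4.95 in wild type sham and 1.30 in wild type injured, a difference of -3.65. Rbp4, the retinol carrier, differed by -3.29. Between the injured kidneys 4 of 15 were higher and 1 lower in NLRC5-/-, where 8.74% of all genes were higher and 7.72% lower. Gc, the vitamin D-binding protein, differed by 1.87, the folate receptor Folr1 by 1.48 and Cyp24a1, which breaks down vitamin D, by -2.01. In NLRC5-/- 4 of 15 were lower after injury and 0 higher, where 3.18% of all genes were lower and 4.46% higher.

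Of 17 genes for the adaptors and the clathrin coat that carry the receptors inward, 2 were higher and 2 lower at 2-fold in wild type injured kidney, with a median of 0.26, where 14.3% of all genes were higher and 12.7% lower. The AP-2 subunit Ap2b1 differed by 1.30 and the clathrin heavy chain Cltc by 1.15, whereas the clathrin light chain Clta differed by -1.09 and Eps15 by -1.03. Between the injured kidneys 0 were higher and 2 lower in NLRC5-/-, with Ap2b1 the lowest at -1.14. Of all genes 8.74% were higher there and 7.72% lower. Of 21 genes for endosomes and acidification, 0 were higher and 4 lower in wild type, led by the sodium-proton exchanger Slc9a3 at -1.38 and the proton pump subunit Atp6v0d1 at -1.25. Slc9a3 was higher in NLRC5-/- injured kidney by 1.27, and 3 of the 21 were lower.

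Lysosomal genes were mostly lower in wild type injured kidney. Of 26, 20 were below 0, with a median of -0.57, where 8066 of all 16643 genes above background were below 0. At 2-fold 1 was higher and 8 lower, where 14.3% of all genes were higher and 12.7% lower. Cathepsin D (Ctsd) was the one higher, by 1.52, and cathepsin H (Ctsh) and cathepsin A (Ctsa) were the lowest at -1.81 and -1.80. Between the injured kidneys 3 were higher and 1 lower in NLRC5-/-, where 8.74% of all genes were higher and 7.72% lower. These were Ctss (1.70), Ctsa (1.63) and, named after its value was seen, Tpp1 (1.22) against Ctsd (-1.32). In NLRC5-/- 0 of 26 differed by 2-fold with injury, where 7.64% of all genes did. In the difference between responses 8 were 2-fold higher and 1 lower, where 9.82% of all genes were higher and 9.29% lower. Between the sham kidneys 22 of 26 were below 0 on the NLRC5-/- array, where 7812 of all 16963 genes were. Of the 26, 3 were 2-fold lower, where 3.25% of all genes were. The list's median lay between -0.65 and -0.39 under 4 scalings.

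Among other LDL receptor relatives of megalin, of 10 above background, 0 were 2-fold lower in wild type injured kidney and 1 was higher, Lrp8, by at least 2.79, since its probe was not well above background in sham. Lrp4 had the lowest value, -0.61. Of all genes 12.7% were lower and 14.3% higher. Between the injured kidneys 7 of the 10 were above 0 in NLRC5-/-, with a median of 0.43, where 8515 of all 16713 genes were above 0. At 2-fold 0 were higher and 1 lower, where 8.74% of all genes were higher and 7.72% lower. The 1 lower was Lrp8, at -2.59 or below, since its probe was not well above background in NLRC5-/- injured. In the difference between responses 3 of 9 were 2-fold higher and 0 lower, where 9.82% of all genes were higher and 9.29% lower. These were Lrp4 at 1.31, Lrp12 at 1.16 and Lrp1 at 1.01, beside 1.18 for Lrp2. Lrp12 was named after its value was seen. Among 6 transcription factors of the proximal tubule, Hnf4a was 2-fold lower in wild type (-1.06), and Ppara was the highest at 0.60. Between the injured kidneys 0 of 6 differed by 2-fold, where 16.5% of all genes did, with Hnf4a at 0.51 and Ppara at -0.71.

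**Figure D4:**
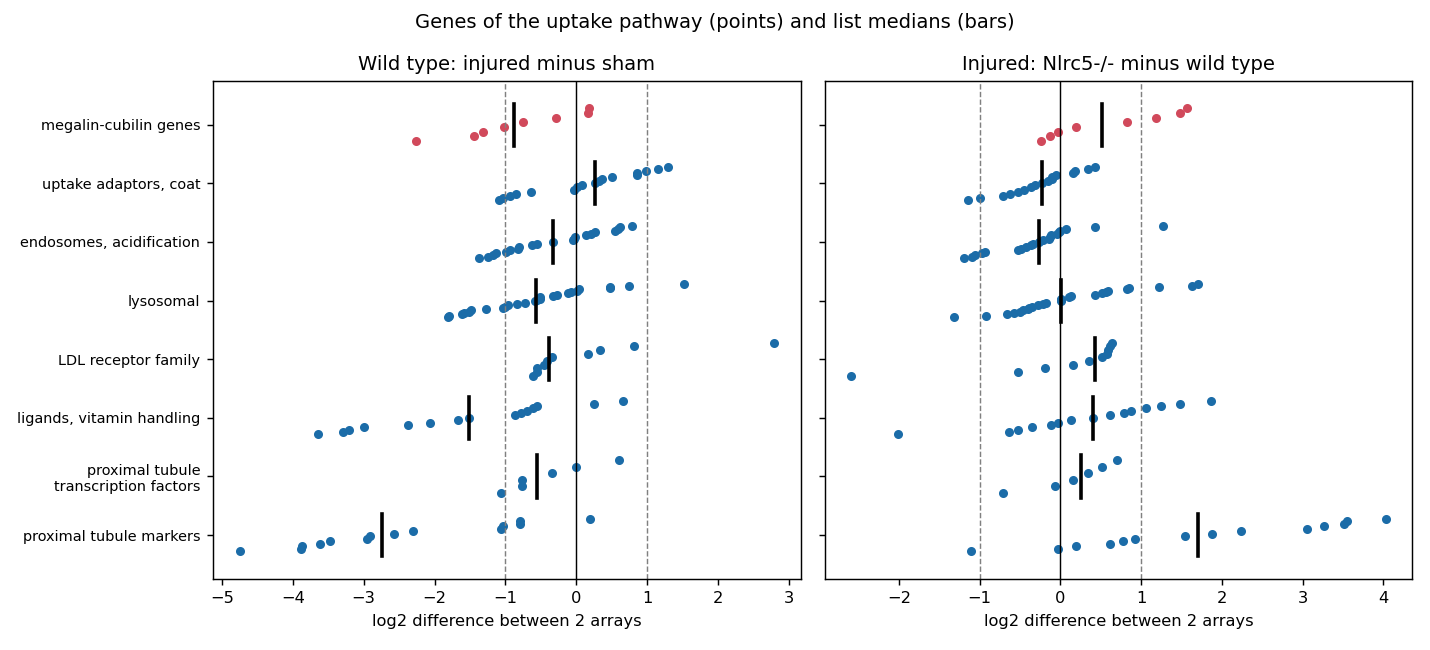
Each point is one gene above background on either array, placed by its log2 difference in wild type injured minus sham kidney (left) and in NLRC5-/- minus wild type injured kidney (right), with a bar at the median of each list and dashed lines at 2-fold. The 8 genes have medians of -0.89 and 0.51, between those of the uptake adaptors (0.26 and -0.23) and those of the proximal tubule markers (-2.74 and 1.71).

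Markers of the proximal tubule, the cell type in which megalin and cubilin work, were well above background on all 4 arrays for 14 of 14 genes. Their summed level, as signal relative to each array's 75th percentile, was 1710 in wild type sham, 1370 in NLRC5-/- sham, 356 in wild type injured and 1300 in NLRC5-/- injured, so it was low on the array on which Lrp2, Cubn, Amn and Lrpap1 were low. In wild type 11 of 14 markers were 2-fold lower after injury, and between the injured kidneys 8 were higher and 1 lower in NLRC5-/-. Of all genes, 14.3% were higher and 12.7% lower after injury in wild type, and 4.46% higher and 3.18% lower in NLRC5-/-. Between the injured kidneys 8.74% of all genes were higher and 7.72% lower. The 8 injured tubule markers summed to 87.8, 151, 1120 and 401, with 7 of 8 higher after injury in wild type and 5 of 8 in NLRC5-/-. Spp1 was the highest of the 8 on every array and weighs most in the sum. Between the sham kidneys 1 of the 8 was 2-fold higher and 2 lower in NLRC5-/-, where 3.9% of all genes were higher and 3.25% lower. The 2 lower were Havcr1 (-5.29) and Krt20 (-2.6), against Lcn2 (1.05). These 4 genes were named after their values were seen. Endothelial markers summed to 29.1, 41.1, 9.09 and 32.6. Of 10 macrophage markers 2 were higher and 6 lower after injury in wild type, and 6 were higher and 1 lower in NLRC5-/- than in wild type injured kidney. Both sham arrays also stood apart in markers of other tissues. The 5 adipocyte markers summed to 48.2, 13.2, 4.64 and 8.97 and the 5 urothelium markers to 4.30, 1.45, 0.887 and 1.09, highest in wild type sham, and all 5 of each list were 2-fold lower after injury in wild type (medians -5.16 and -3.42). The 3 erythroid markers summed to 6.52, 55.9, 1.84 and 1.37, highest in NLRC5-/- sham, with a median of -5.89 after injury in NLRC5-/-. Of 5 podocyte markers 4 were 2-fold lower after injury in wild type. In whole kidney, fewer cells of a type and less RNA per cell cannot be told apart, and the part of these shifts in the values of the 8 genes was not tested.

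The genes whose pattern over the 4 arrays was nearest to each member were found by the root mean square difference of values centred on each gene's mean, among 14933 genes above background on all arrays. For Lrp2 these were BC028528 (0.02), Marcks (0.03) and Cdhr4 (0.03), and for Cubn Ttc17 (0.01), Mterf2 (0.03) and Dmtn (0.03). For Amn they were Sirt3, Sall2 and Spsb3 (0.03 to 0.05), and for Lrpap1 Abca8a, Spon1 and Slc16a10 (0.03 to 0.06). Gsap (0.04) was among the 3 nearest to Dab2, and Lamp1 lay nearest to Lap3 (0.02), a peptidase on the list of proximal tubule markers. Clcn5 lay nearest to Vps33b, 4930432J09Rik and Sipa1l3 and Ctsb to Lmx1b, Clpp and Mdm1, all at 0.01. With 4 values a gene, such closeness is a description only.

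Promoters were read because the lysosomal members and the receptors differ in the arrays and lysosomal genes are known to carry the E-box CACGTG bound by TFEB. RefSeq windows from 250 bases before to 50 bases after a start (GRCm38.p6) were at hand for 7 of the 8 genes. Both strands were searched for 9 motifs, and CACGTG, which reads the same on both strands, was kept for display after the matches were seen. It was in the windows of 2 of 7 genes, Lamp1 with 4 copies and Amn with 1, and in 7.15% of all 32851 windows. A gene was counted if any of its windows matched, and Dab2 and Clcn5 had 2 windows each. The counts of genes and the shares of windows are thus unlike measures. Windows with 4 or more copies made up 0.0244% of all (8 windows). The stretches below lie upstream of the start, with CACGTG in capitals.
Lamp1, chr8:13159092-13159159, plus strand: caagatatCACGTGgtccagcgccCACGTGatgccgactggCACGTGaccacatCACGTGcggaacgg
Amn, chr12:111271062-111271083, plus strand: cgcccggtCACGTGgggccctc
CAAAGT was in the windows of 3 of 7 genes (Clcn5, Dab2 and Lrp2) and in 14.4% of all windows. GGGCGGGG was in 2 of 7 (Amn and Lrpap1) and 17.6% of all. No window of the 7 held TCACGTGA (0.974% of all), the palindromic E-box of 10 letters (0.326%), CAAAGTCCA (0.475%) or TGACCTTTG (0.478%). TCACGTGA and the 10-letter E-box contain CACGTG, and CAAAGTCCA contains CAAAGT. Among lysosomal genes 7 of 21 with a window held CACGTG, and among proximal tubule markers 4 of 12. Amn and Lamp1, the members with CACGTG, differed by -1.32 and -0.75 with injury in wild type and by 0.31 and -0.15 in NLRC5-/-. A match describes the letters in these windows and is not evidence that a factor binds there.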

How the data were processed

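Scanner files deposited for each array give intensity by spot. Their headers name Agilent Feature Extraction 10.7.3.1, whereas the submitters' processing notes name 9.1. A table deposited by the authors gives log2 values of these arrays, with medians of 5.91 to 5.93. Its scaling between arrays is not given in the sources used here, and it served as an alternative. Processed intensity was background-subtracted and detrended within arrays, per the file headers. Control spots and outlier spots were dropped, spots of a probe averaged, and log2 values scaled to the 75th percentile (457.0, 465.5, 181.8 and 361.7 in wild type sham, NLRC5-/- sham, wild type injured and NLRC5-/- injured). Well above background were 67.3% (wild type injured) to 74.6% (NLRC5-/- sham) of probes. Probes were named through GRCm38.p6 RefSeq by accession (27649), symbol (5584) or synonym (471), 1123 kept the file's name and 6315 had none. A value at background was raised to the lowest value well above background on its array. limma 3.58.1 (R 4.3.3) used genes above background on at least 2 arrays, took the measured values without that bound, and was tested on simulated data. Named genes are all members, the 2 most different each way per list, and the 3 nearest to each member. A few of these genes and 2 of the 9 motifs searched are not reported here. The members, lists and rules were chosen with earlier results of these data known. Alternatives covered background correction, scaling, probe choice, filter and threshold. Normexp correction (offset 50) was run in 3 forms. The planned form left out flagged spots, and was fitted poorly on the NLRC5-/- injured array, where 3 unflagged spots had a background far above their signal and the fitted background mean was -209.3 against -6.7 to -1.2 on the others. The other forms were added after seeing that output. One also left out spots with a flagged background, which lost Cubn and could change the probe that stands for a gene. The other left these out of the fit alone.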

Additional observations from a re-analysis of the deposited data

Results flagged for a closer look

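Injury responses ran in opposite directions in the 2 genotypes for 4 of the 8 genes. The difference between the responses was not tested, since each response is a difference between 2 arrays. The share of all genes with opposite directions was not counted, so the 4 are not read as particular to this group. Of all genes, 8577 were above 0 and 8066 below with injury in wild type, and 8889 and 8122 in NLRC5-/-. Of the 4, Lrp2, Amn and Dab2 had the same sign in both genotypes under the planned normexp form, with NLRC5-/- responses of -0.40, -0.29 and -0.26, and kept opposite signs under the 2 normexp forms added later. With the mean over probes Lrp2 was at -0.12 in NLRC5-/-. For Amn the NLRC5-/- response exceeded the wild type response by 1.63 (-1.32 in wild type and 0.31 in NLRC5-/-). For Lrp2 it did so by 1.18 (-1.02 and 0.16), with -2.79 and -0.88 by its probe A_52_P285470, which had the same sign in both genotypes. For Dab2 the difference was 0.53 (-0.29 and 0.25), and the junction probe A_52_P17534 gave -0.94 and -0.02. For Clcn5 it was -0.31 (0.17 and -0.14), and 0.17 and -0.08 by its other probe. With wild type sham in place of the NLRC5-/- sham array, Dab2 differed by -0.42 in NLRC5-/- and no longer ran against wild type.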

How the results depend on the processing

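No paired analysis was possible because each group had 1 array and the labels give no shared replicate numbers. Of the 8 genes, the 2-fold counts were 4 (injury in wild type), 0 (injury in NLRC5-/-), 0 (genotype in sham), 3 (genotype in injured) and 3 (difference between responses). At 4-fold they were 1, 0, 0, 0 and 1, where 7.21%, 1.6%, 1.01%, 3.77% and 4.6% of all genes differed. At 1.5-fold the difference between responses had 5 and the sham comparison 2, where 39.0% and 23.1% of all genes differed. Under the planned normexp form 1 gene, Cubn, was 2-fold lower with injury in NLRC5-/- (-1.13), and the form shifted all genes there, with 4885 higher and 522 lower. Lrp2 then missed 2-fold between the injured kidneys (0.77) and in the difference between responses (0.94), which left 2 of 8 genes in each. Lrp2 missed 2-fold in wild type injury with quantile normalization (-0.95) and the authors' value table (-0.97). No difference of at least 2-fold changed sign under any alternative run, but smaller ones did, including the NLRC5-/- injury responses of Lrp2, Amn and Dab2. The limma counts of 0 became 4292 (injury) and 101 (genotype) with the planned normexp form, 1217 and 232 with flagged backgrounds also left out, and 1060 and 150 with these left out of the fit alone. The smallest adjusted p of the limma fits without normexp was 0.31. Of the 8 genes Cubn or Lrpap1 passed for injury in these forms and none for genotype, and the cause was not tested. The number of arrays, 1 per group, limits the precision of every value.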
